A study of Mus musculus with 15 samples.

Results

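The 5 libraries described here were made from untreated adult neural stem cell (aNSC) cultures and give the baseline transcriptome of the cells used in the study. They were chosen by their labels, genotype Trrap Fl/+; Rosa26-CreERT2 tg with no treatment, and are 5 of the 15 libraries of the series. Each culture came from a different mouse of the strain C57BL6/J-129sv, aged 2 months, and is called by the number of its mouse. Mice 19, 35 and 36 were labelled male, and mice 24 and 26 female. All 5 carried a wild-type and a floxed (loxP-flanked) allele of Trrap, a cofactor of histone acetyltransferase complexes, and a Cre recombinase fused to the oestrogen receptor and placed at the ubiquitous Rosa26 locus. This recombinase had not been induced, because no 4-hydroxytamoxifen (4-OHT) was given. The cells were taken from the subventricular zone (SVZ) of the lateral ventricle and grown in suspension with EGF, bFGF and the B-27 supplement. A culture of this kind is not a clone, and bulk RNA cannot tell fewer cells of a type from less RNA per cell.

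Neural stem cells of the adult SVZ are astrocyte-like cells that descend from embryonic radial glia. They give rise to transit-amplifying progenitors, then to neuroblasts of the olfactory bulb, and less often to oligodendrocytes and astrocytes. With EGF and FGF in the medium they divide as floating spheres that hold stem cells together with their progenitors. The identity of such cells is set by transcription factors of the Sox, bHLH and homeobox families, among which regional factors keep a memory of the part of the neural tube the cells came from.

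Between 27693657 and 29683741 reads were assigned to genes in each culture. Levels of 1 gene across cultures are given as CPM (counts per 1000000 reads of the library, with TMM scaling between libraries), and levels of different genes are compared as TPM, which divides the counts by exon length before the scaling. Of the 53801 genes in the table, 12278 were at 1 CPM or more in all 5 cultures, 9091 at 10 CPM or more and 1949 at 100 CPM or more. Protein-coding genes made up 11635 of the 12278, which is 53% of all protein-coding genes. No read was counted for 27255 genes in any of the 5 cultures. At this depth 3 counts, taken as the limit of detection, correspond to 0.101 to 0.111 CPM. Reads carried no molecular identifiers, so this limit covers counting error only. Mitochondrial genes took 1.72 to 3.56% of the counts (mean 2.52% ± 0.681, SD, n = 5).

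The markers that define these cells were present at high levels in every culture. Nes, which encodes the intermediate filament nestin, was at 892, 616, 889, 1121 and 1259 CPM in cultures 19, 24, 26, 35 and 36, and all per-culture values below follow this order. Sox2, the transcription factor that maintains the stem cell state, was at 381, 489, 479, 297 and 278 CPM. Fabp7, a fatty acid-binding protein of radial glia, reached 3760.4, 2381, 3223, 3637 and 4437 CPM. These 3 genes differed between cultures by up to 2.05-, 1.76- and 1.86-fold, and Sox2 was lowest in cultures 35 and 36, where Nes was highest. Olig1, a bHLH factor of the oligodendrocyte lineage and of amplifying progenitors, was at 2416, 2194, 2655, 2283 and 2213 CPM. Egfr, the receptor for the EGF in the medium and a marker of activated stem cells, was at 690.4, 764, 738, 803 and 758 CPM. Olig1 and Egfr were the least variable of the 5 markers, with coefficients of variation (CV) of 8.1% and 5.5%. The quiescence-associated genes Thbs4 and Hopx were low per length, at 1.5 and 9.68 TPM, and Prom1, which encodes the stem cell antigen prominin-1, was at 20.2, 15.1, 25.8, 7.32 and 3.88 CPM. Prom1 was lowest in cultures 35 and 36, as Sox2 was.

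**Figure D1:**
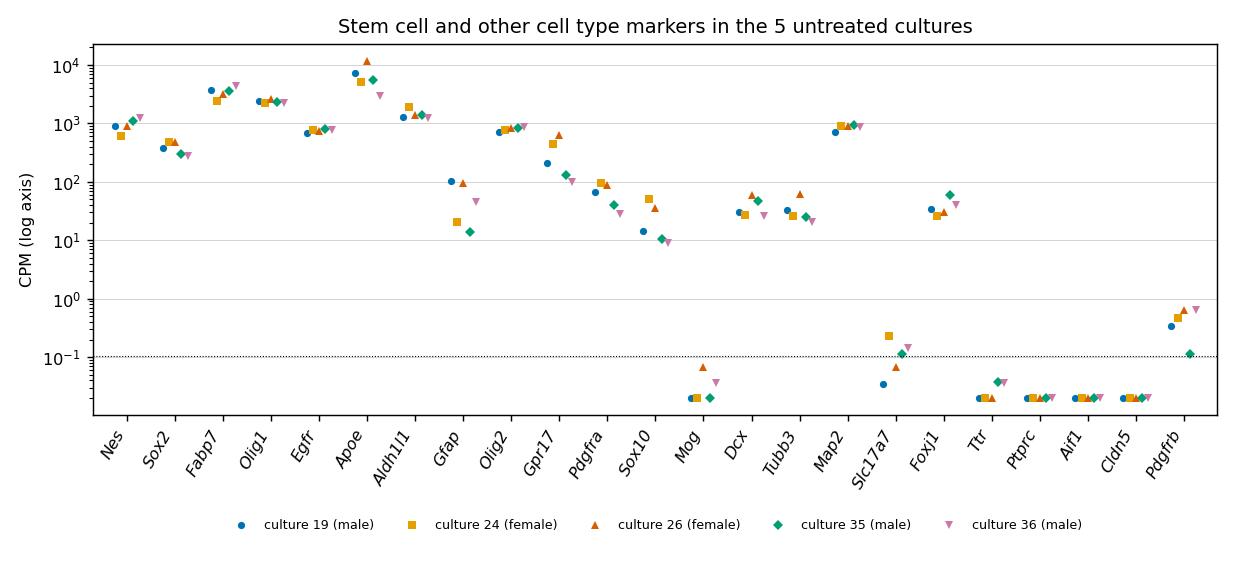
Level in CPM (log axis) of the 5 stem cell markers (left) and of markers of other neural and non-neural cell types, with 1 symbol per culture. Values below 0.02 CPM are drawn at 0.02 and the dotted line marks 3 counts. The stem cell markers lie between 278 and 4437 CPM, whereas Ptprc, Aif1 and Cldn5 were listed at 0 in all 5 cultures.

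The proximal promoters of 4 of these markers are shown because CG-rich promoters were far more frequent among expressed than among undetected genes, and the markers themselves differ in CG content. Each line gives the 150 bases before the RefSeq transcription start on the strand of the gene (GRCm38.p6), 5′ to 3′, with CG dinucleotides in capitals. Ptprc, the pan-leukocyte gene without a read in any culture, is added as an undetected gene.
Fabp7 (chr10:57784773-57784922, plus strand): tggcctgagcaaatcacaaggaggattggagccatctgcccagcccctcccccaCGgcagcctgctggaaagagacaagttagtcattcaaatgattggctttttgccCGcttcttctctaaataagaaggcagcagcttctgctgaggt
Sox2 (chr3:34649845-34649994, plus strand): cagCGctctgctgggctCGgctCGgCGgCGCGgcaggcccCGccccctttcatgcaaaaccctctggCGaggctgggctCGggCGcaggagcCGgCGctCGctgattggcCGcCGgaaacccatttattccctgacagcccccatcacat
Nes (chr3:87970943-87971092, plus strand): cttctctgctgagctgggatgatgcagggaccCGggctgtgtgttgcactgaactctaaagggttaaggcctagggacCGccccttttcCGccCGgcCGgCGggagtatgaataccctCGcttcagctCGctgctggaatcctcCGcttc
Egfr (chr11:16752053-16752202, plus strand): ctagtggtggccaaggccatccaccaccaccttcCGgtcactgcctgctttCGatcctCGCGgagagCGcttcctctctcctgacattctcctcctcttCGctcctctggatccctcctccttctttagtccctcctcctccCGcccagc
Ptprc (chr1:138175306-138175455, minus strand): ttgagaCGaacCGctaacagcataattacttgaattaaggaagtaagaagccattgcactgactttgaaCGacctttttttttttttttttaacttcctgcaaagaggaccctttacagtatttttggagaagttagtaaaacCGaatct

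Over the whole window of 300 bases (250 before to 50 after the start), CG occurred 27 times at Sox2, 18 times at Nes, 15 times at Egfr, 6 times at Fabp7 and 4 times at Ptprc. The window was taken for 16505 protein-coding genes, at the first start listed. CG occurred 10 or more times in 59% of them. The same held for 87.2% of the 9255 genes at 1 CPM or more in every culture and for 12.3% of the 5146 genes with at most 3 counts in every culture. The letters TATAAA, on either strand, were in 6.05% of the first and 25.7% of the second group, against 12.8% of all windows. Of the printed genes, Ptprc alone held TATAAA in the window. Among the genes of the stem cell list, 16 of the 19 with a window had 10 or more CG, and Fabp7 was one of the 3 that did not. These counts describe letters and do not show that a factor binds.

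The ranks given here rest on uniquely mapped reads, so genes with many near-identical copies may rank too low. Per exon length, the most abundant nuclear transcript by such reads was Apoe, the main lipid carrier of glial cells, at 11079 TPM. It ranked 4 among all genes, behind the mitochondrial genes mt-Cytb, mt-Nd1 and mt-Co1. Its level was 7282, 5052, 11759.6, 5469 and 2984 CPM, about 3.94-fold higher in culture 26 than in culture 36. Fabp7 followed at 10227 TPM, with a range from 7088 to 13653 TPM that lay within that of Apoe (5369 to 20071). The order of these 2 genes was therefore not the same in every culture. Ckb, the brain creatine kinase, came next at 7806 TPM and held within 5791 to 6679.7 CPM.

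The remaining 17 of the 20 highest nuclear coding transcripts had diverse roles. Scd2, a stearoyl-CoA desaturase, was at 4549.8 TPM, Dbi, an acyl-CoA-binding protein, at 4522 TPM, and Igfbp2, a secreted binder of insulin-like growth factors, at 4469 TPM. Olig1 was at 3980.5 TPM and ranked 17 of all genes, the only transcription factor among these 20. The translation genes Rplp1, Eef1a1, Eef2 and Rps15 were at 5527, 3403, 3238 and 2379 TPM. Tmsb4x and Actb, of the actin cytoskeleton, were at 2966 and 2907 TPM. Hsp90ab1, Pea15a, Cst3, Ywhae and Txn1 completed the group, between 2215 and 3206 TPM. The metallothioneins Mt1 and Mt2, which bind zinc and copper, varied most in this group apart from Apoe. Mt1 was at 1130.5, 1000.4, 1000.02, 546 and 363 CPM and Mt2 at 656, 533, 492, 276 and 203 CPM, and both were lowest in cultures 35 and 36.

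The 10 most abundant genes took 5.06% of the counts and the 100 most abundant 17.7% ± 1.13 (SD, n = 5). Of the 50 genes with the highest TPM, 40 were nuclear and protein coding, 6 were mitochondrial and protein coding, 1 was mitochondrial ribosomal RNA (mt-Rnr1, 889, 352, 278, 581 and 129 CPM) and 3 were other noncoding genes. These 3, Gm42418, Gm23935 and Mir6236, include a locus of 57 and one of 123 bases of exon (Gm23935 and Mir6236), so that few bases carry their TPM. Gm42418 was at 4623, 627, 393, 9243 and 653 CPM, about 23.5-fold higher in culture 35 than in culture 26. Reads that map to several places were not counted, so genes with many near-identical copies read low. Gapdh, the usual reference enzyme of glycolysis, was counted at 7.14, 10.3, 6.56, 4.72 and 5.49 CPM, and such values are no measure of its expression.

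Genes that also mark astrocytes were as abundant as the stem cell genes. The 27 stem and progenitor genes had a median of 191 TPM and the 12 astrocyte genes a median of 198 TPM, beside 1.61 TPM over the 26546 genes with at least 1 count. In all 5 cultures, 26 of the 27 and 11 of the 12 were at 1 CPM or more. Aldh1l1, a folate enzyme of astrocytes, was at 1310.4, 1876, 1374, 1416 and 1236 CPM, and Slc1a2, the main glial glutamate transporter, at 614, 629, 987, 857 and 566 CPM. Aqp4, the water channel of astrocyte endfeet, was at 383, 303, 424, 354 and 183 CPM. By contrast Gfap, the intermediate filament of mature and reactive astrocytes, was at 103, 20.9, 95, 14 and 44.5 CPM, high in cultures 19 and 26 and lowest in culture 35. S100b was highest in culture 35, at 37.3, 20.7, 50.2, 126 and 64.2 CPM. Of the 12 astrocyte genes, 8 were highest in culture 26 and 8 lowest in culture 36, where over all 13088 genes averaging 1 CPM or more 20.1% were highest in culture 26 and 24.4% lowest in culture 36.

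Early oligodendrocyte lineage genes were present in every culture, whereas markers of myelin-forming cells were low or not detected. All 10 early genes were at 1 CPM or more throughout, with a median of 129 TPM. Olig2, the partner of Olig1, was at 714, 777, 822, 832 and 857 CPM, and Bcan, the proteoglycan brevican, at 1671, 1694, 2331, 1525 and 1399 CPM. Gpr17, a receptor of committed oligodendrocyte precursors, was at 209, 449.8, 635, 132 and 101 CPM. Sox10, which drives oligodendrocyte fate, was at 14.4, 50.9, 35.6, 10.6 and 9.01 CPM. Pdgfra, the growth factor receptor of these precursors, was at 66, 95.4, 89.2, 40.3 and 27.9 CPM. All 3 were highest in cultures 24 and 26 and lowest in cultures 35 and 36. This order was chosen after the values of these genes were seen, and cultures 24 and 26 are those labelled female, so that order and label cannot be told apart. As a description, 6 of the 10 early genes had it (Bcan, C1ql1 and Cspg4 were the others), as did 12.4% of the 13088 genes averaging 1 CPM or more. Lhfpl3, Nkx2-2, Olig1 and Olig2 did not share it, and the last 2 had CVs of 8.1% and 7.02%.

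Of the 10 myelin genes, 5 were at 1 CPM or more in all cultures, and Mog, which encodes a surface protein of mature myelin, had no more than 3 counts in any culture. Mbp, a main protein of myelin, was at 8.14, 17, 43, 5.57 and 4.52 CPM. Cnp, a phosphodiesterase that appears early in the lineage, was at 379.8, 529, 504, 323 and 174 CPM and carried most of the summed level of the list. That sum ran from 207 CPM in culture 36 to 672 CPM in culture 26. All 5 of the myelin genes averaging 1 CPM or more were lowest in culture 36.

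Neuronal genes were mixed, and the shares of the neuroblast, mature neuron and myelin lists at 1 CPM or more were near the 53% of all protein-coding genes. Of the 14 neuroblast and interneuron progenitor genes, 8 were at 1 CPM or more in all cultures, among them Dcx, a microtubule protein of migrating neuroblasts, at 31, 26.8, 59.5, 47.4 and 26.2 CPM and Sox11 at 109, 101, 119, 129.5 and 145 CPM. Tubb3, the neuronal tubulin, was at 33, 26.4, 61.8, 25.4 and 20.3 CPM, highest in culture 26. Gad1, an enzyme of GABA synthesis, was at 31.1, 35.7, 34.7, 15.8 and 18.6 CPM. Stmn2 and Gad2, the other GABA-synthesizing enzyme gene, were below 1 CPM in every culture, at 0 to 0.303 and 0.215 to 0.863 CPM. Of the 12 mature neuron genes, 7 passed 1 CPM in all cultures, and Map2, a microtubule-associated protein, was the highest per length at 194 TPM. Its level was 714, 919, 912, 934 and 868 CPM, a CV of 10.4%. The transmitter transporters Slc17a7 and Slc32a1 were at 0.0345 to 0.235 and 0 to 0.144 CPM, and no read was counted for Th, the rate-limiting enzyme of dopamine synthesis. Rbfox3, which encodes the neuronal antigen NeuN, was at 3.93, 2.92, 14.3, 4.6 and 2.41 CPM, with its highest value in culture 26.

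Most microglia and macrophage markers were at or below the limit of detection, and the others, like some endothelial and mural genes, had low levels above it. Of the 10 microglia and macrophage genes, 7 had at most 3 counts in each culture, and no read was counted for Ptprc, Aif1, C1qa, C1qb or Tyrobp. The summed level of that list was 2.0 to 2.45 CPM, most of it the lysosomal gene Cd68 (1.54 to 2.35 CPM). The endothelial tight junction gene Cldn5 was listed at 0 in all cultures and Cdh5 at 0 to 0.104 CPM, and the endothelial sum of 13.8 to 26.7 CPM came mainly from the VEGF receptors Flt1 (8.28 to 19.7 CPM) and Kdr (3.96 to 4.84 CPM). The 9 mural and fibroblast genes summed to 3.33 to 18.2 CPM, with Acta2 at 0.656, 3.65, 0.235, 8.87 and 4.6 CPM. In the ependymal and choroid list, Foxj1, the master factor of motile cilia, was at 33.7, 25.9, 29.9, 58.9 and 39.5 CPM, while Tmem212 was listed at 0 and Ttr, the main secreted protein of the choroid plexus, had at most 1 count.

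**Figure D2:**
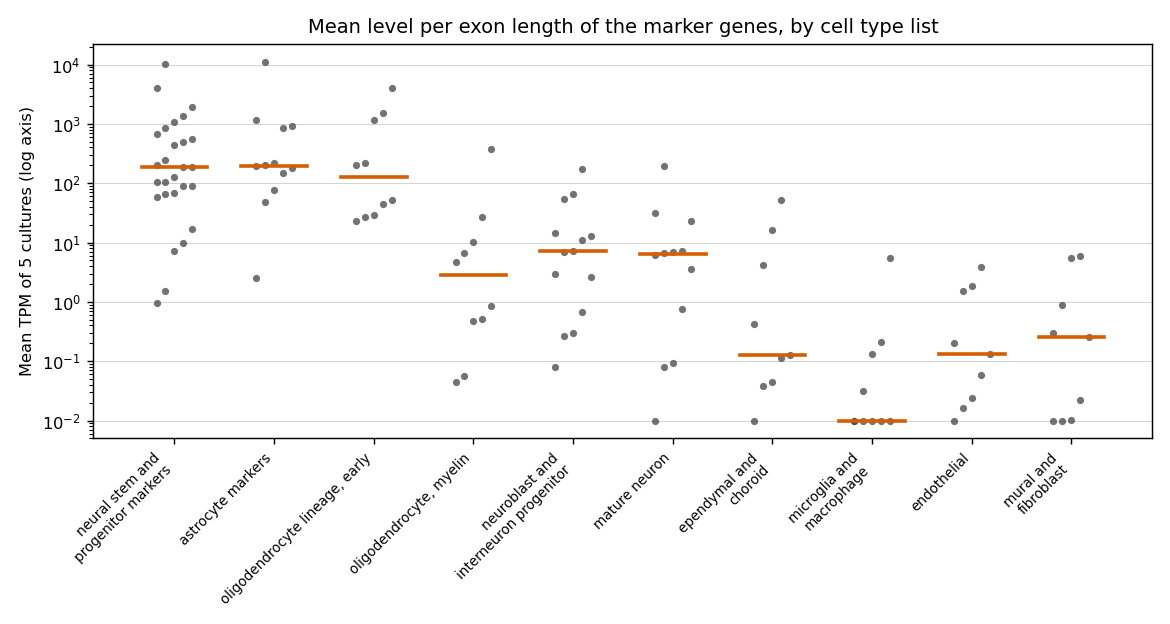
Mean TPM over the 5 cultures (log axis) of each gene in 10 marker lists, with 1 point per gene and the median of the list as an orange bar. Values below 0.01 TPM are drawn at 0.01. The medians of the stem cell, astrocyte and early oligodendrocyte lists lie at 129 to 198 TPM, those of the 2 neuronal lists at 6.33 and 7.09 TPM, and those of the ependymal, microglial, endothelial and mural lists below 1 TPM.

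Of the 16 Sox genes, 13 were at 1 CPM or more in all cultures. Sox8 (693 TPM), Sox2 (684 TPM) and Sox4 (527 TPM) were the highest per length, and their ranges over the cultures overlapped. Sox9, which directs glial fate, was at 202 TPM and 232, 233, 314, 178 and 181 CPM. The endothelial members Sox7, Sox17 and Sox18 were at 0 to 0.242, 0 and 0 to 0.201 CPM. The summed level of the Sox genes was 2701, 3366, 3424, 2235 and 2323 CPM, lowest in cultures 35 and 36.

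Among 21 bHLH factors, the glial factors Olig1 and Olig2 (3980.5 and 1159 TPM) stood far above the rest. The Notch effectors Hes1 and Hes5 had CVs of 24.3% and 42.3%, and Hes5 was at 73.4, 102, 93, 26.3 and 59 CPM, lowest in culture 35. Proneural factors of glutamatergic neurons were low. Neurog2 was at 2.42, 2.35, 6.59, 0.483 and 0.18 CPM and Neurod1, a factor of differentiating neurons, at 5.11, 0.0335, 14.5, 2.56 and 1.36 CPM, both highest in culture 26. Olig3 and Neurog1 had at most 1 count in each culture.

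Of 34 other progenitor transcription factors, 33 were at 1 CPM or more in all cultures. Sall2 (299.9 TPM), Rfx4 (270.3 TPM) and Myc (219 TPM) were the highest per length, and Myc was at 172, 165, 183, 152 and 143 CPM. Mycn, its relative of embryonic progenitors, was at 3.73 to 7.94 CPM. The nuclear factor I genes Nfia, Nfib and Nfix, which promote gliogenesis, were at 233 to 306, 257 to 378 and 255 to 446 CPM. Nr2e1 (also known as Tlx), which adult stem cells need to self-renew, was at 55.9, 66.2, 79.4, 67.1 and 67.7 CPM. Gli1, the target gene that reports Hedgehog signalling, was at 0.0718 to 0.536 CPM, the one gene of this list below 1 CPM.

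Some factors of the forebrain were expressed in every culture, and others were near-absent from a single culture. Lhx2, a factor of the dorsal forebrain, was at 76.2, 82.8, 88.9, 37.9 and 66.1 CPM. Meis2, a homeobox factor of the lateral ganglionic eminence and SVZ, was at 148, 176, 185, 126 and 124 CPM. Both were lower in cultures 35 and 36 than in the other 3. Lhx2 was the highest regional gene per length at 58.8 TPM, followed by Meis2 at 46.2 TPM. Pax6 was at 52.2, 61.9, 60.6, 42.3 and 52.1 CPM, Emx2 at 41.6, 35.8, 46.1, 28.4 and 14.1 CPM and Gsx1 at 10.4, 8.82, 12.1, 8.76 and 15.4 CPM. All 5 of these were above 8 CPM in every culture. Of the 31 forebrain genes, 12 were at 1 CPM or more in all 5 cultures, a smaller share than the 53% of all protein-coding genes, and 21 had a mean of at least 1 CPM. Nkx2-1 and Lhx8, of the medial ganglionic eminence, had no read, and Lhx6 and Emx1 had at most 1 count in any culture. The pallial neuron factors Eomes and Tbr1 were at 0.101 to 0.539 and 0.0345 to 0.168 CPM.

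The 21 expressed forebrain genes had a median CV of 71.1%, beside 17.6% over the 13088 genes averaging 1 CPM or more. Set against genes of the same level, a comparison added after the data were seen, the 9 at 1 to 10 CPM had a median of 99.7% (all genes 29.7%) and the 11 at 10 to 100 CPM a median of 35.9% (all genes 15.5%). Six3, a homeobox factor of the anterior forebrain and striatal lineage, was at 49.4, 1.44, 39.1, 51.8 and 70.6 CPM, low in culture 24. Its antisense transcript Six3os1, counted on the other strand, was at 137, 0.235, 93.6, 189.7 and 274 CPM. Both were far lower in culture 24 than in the other 4 cultures, and both were highest in culture 36. Six3os1 was not counted together with Six3, since the counting used strand. Zic1, a zinc finger factor of the septum and dorsal midline, was at 24.7, 48.1, 12.1, 0.111 and 73.7 CPM and had 3 counts in culture 35. Zic4, which lies beside it and overlaps it on chromosome 9, was at 1.35, 3.02, 0.639, 0.0371 and 4.96 CPM. Both were highest in culture 36 and lowest in culture 35. Zic2 was at 15.4, 0.436, 10.3, 6.24 and 18.8 CPM and its neighbour Zic5 at 3.69, 0.168, 2.62, 1.71 and 5.42 CPM, both lowest in culture 24. Otx1 was low in culture 36, at 17, 25.8, 22.7, 18.1 and 1.44 CPM, and Otx2, a factor of the anterior brain and choroid plexus, was high in cultures 24 and 36, at 3.62, 23.1, 2.52, 1.93 and 17.5 CPM. Sp8, of interneuron progenitors, had 2 counts in culture 26 and was at 2.24, 8.89, 0.0673, 0.891 and 5.67 CPM. Dlx6, which follows Dlx1 and Dlx2 in interneuron formation, was at 0, 0.0335, 0.0336, 0 and 2.01 CPM, above 1 CPM in culture 36 alone.

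The lowest values of the regional genes did not fall in a single library. Culture 24 was lowest for Six3, Zic2 and Zic5, culture 35 for Zic1, Zic4, Dlx1 and Dlx2, culture 36 for Otx1 and Emx2, and culture 26 for Sp8. Of the 21 forebrain genes 9 were highest in culture 24 and 9 lowest in culture 35, beside 18.8% and 17.1% of all 13088 genes. Within 250 kb of each other lay 3 pairs of expressed regional genes, Zic1 with Zic4, Zic2 with Zic5 and Dlx1 with Dlx2. In all 3 pairs both genes were lowest in the same culture, and in 2 both were also highest in the same culture. Among 10622 adjacent protein-coding pairs at that distance, 25.5% shared the lowest and 25.5% the highest culture.

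**Figure D3:**
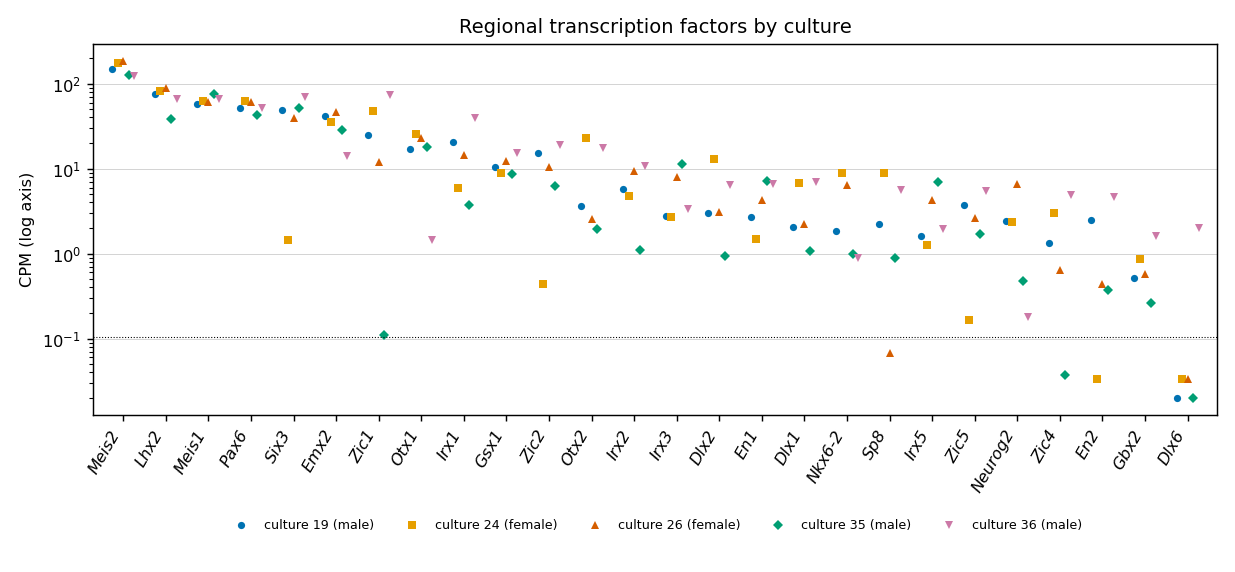
Level in CPM (log axis) of the forebrain, midbrain, hindbrain and spinal factors reported here that reached 1 CPM in at least 1 culture, ordered by mean, with 1 symbol per culture. Values below 0.02 CPM are drawn at 0.02 and the dotted line marks 3 counts. Meis2, Lhx2, Meis1 and Pax6 lie closer together across cultures than Six3 and Zic1, whose values in culture 24 and culture 35 fall far below the others.

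The promoters of the 2 factors with these gaps are printed for comparison with the markers above. Each is the 150 bases before the RefSeq start on the gene's strand (GRCm38.p6), with CG in capitals.
Zic1 (chr9:91365769-91365918, minus strand): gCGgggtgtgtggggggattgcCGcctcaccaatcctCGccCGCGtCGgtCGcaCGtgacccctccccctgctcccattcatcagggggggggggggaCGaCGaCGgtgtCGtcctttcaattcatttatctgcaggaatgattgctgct
Six3 (chr17:85620684-85620833, plus strand): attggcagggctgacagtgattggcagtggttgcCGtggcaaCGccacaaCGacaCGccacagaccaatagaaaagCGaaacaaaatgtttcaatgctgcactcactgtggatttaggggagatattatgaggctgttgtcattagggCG

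In the window of 300 bases Zic1 held 31 CG and Six3 14. Of the 178 genes with a window, a mean of at least 10 CPM and a CV of 50% or more, 80.3% had 10 or more CG, beside 90.9% of the 5419 with a CV under 20%.

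Factors of more posterior regions were mostly at or below the limit of detection. Of 30 midbrain, hindbrain and spinal genes, 19 had at most 3 counts in each culture and 13 had no read at all, among them Pax2, Pax3, Nkx6-1, Foxa2 and 8 of the 11 Hox genes listed. The exceptions were the Iroquois genes and Engrailed. Irx1 was at 20.4, 5.93, 14.5, 3.75 and 39.9 CPM and Irx3 at 2.76, 2.72, 8.01, 11.4 and 3.38 CPM, and they did not share their highest culture. En1, the homeobox factor of the midbrain-hindbrain boundary, was at 2.73, 1.48, 4.24, 7.17 and 6.61 CPM in a tissue of forebrain origin, low but far above the limit of detection in all 5 cultures. En2 passed 1 CPM in cultures 19 and 36 only, at 2.48, 0.0335, 0.437, 0.371 and 4.6 CPM.

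Of the 9 EGF and FGF receptors, 7 were at 1 CPM or more in all cultures, and Erbb3 and Fgfr4 were not. Per exon length Egfr (243 TPM) and Fgfr3 (222 TPM) were the highest, followed by Fgfrl1 (124 TPM), a receptor without a kinase domain, and Fgfr1 (104 TPM), the usual receptor for bFGF in these cells. The range of Egfr over the cultures, 217 to 258 TPM, lay within that of Fgfr3, 182 to 269.7 TPM, so the first 2 could not be ordered. Fgfr3 was at 413, 519, 526, 370.3 and 338 CPM and Fgfr1 at 261, 237, 285, 341 and 275 CPM. Among the relatives of Egfr, Erbb4 and Erbb2 were at 72 to 111 and 31.5 to 44.8 CPM, while Erbb3 was at 0.104 to 0.471 CPM. Fgfr4 was at 0.0359 to 0.138 CPM. The sum of the 9 receptors differed by 1.13-fold between the lowest and highest culture.

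Their feedback genes were expressed as well, 18 of 19 at 1 CPM or more in all cultures. Lrig1, a leucine-rich repeat protein that restrains Egfr, was at 753, 676, 763, 731 and 772 CPM with a CV of 5.19%. Egr1, an immediate early target of the ERK kinases, was at 531, 552, 603, 676 and 593 CPM, and Spry2, a feedback inhibitor of receptor tyrosine kinases, at 237, 209, 258, 303 and 268 CPM. Their CVs were 9.43% and 13.8%, beside a median of 13.4% over the 2386 genes between 100 and 1000 CPM. Dusp6, the phosphatase that inactivates ERK, varied more, at 179, 126, 137, 399 and 351 CPM, about 3.17-fold higher in culture 35 than in culture 24. Spry4 was highest in culture 36, at 70.7, 68.4, 52.3, 91 and 139.9 CPM. The ETS factors Etv4 and Etv5, which report FGF signalling, were at 183 to 237 and 174 to 244 CPM.

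Of 29 other receptor tyrosine kinases, 22 were at 1 CPM or more in all cultures. Ddr1, a collagen receptor, was the highest per length at 663 TPM, followed by Ntrk2, the receptor for BDNF, at 239 TPM and 1028, 1368, 1410.1, 1284 and 1207 CPM. The collagen receptor Ddr2 varied most, at 22.1, 2.82, 4.51, 55.6 and 66.1 CPM, high in cultures 35 and 36. Kit, the receptor for stem cell factor, was at 28.8, 37.2, 42.2, 20.9 and 18.2 CPM. Ret and Musk were at 0.111 to 0.572 and 0 to 0.0371 CPM, both below 1 CPM in every culture.

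The Notch, BMP, Hedgehog and Wnt receptors were at middle levels. Notch1, the receptor that keeps stem cells undifferentiated, was at 253, 286, 281, 236 and 286 CPM, Notch3 at 156 to 195 CPM and Notch2 at 82.4 to 115 CPM. Of the ligands, Dll1 was at 144, 144, 167, 118 and 123 CPM, Dll3 at 80.7, 77.8, 114, 43.5 and 55.6 CPM and Dner, a Delta-like neural protein, at 118, 154, 134, 239.9 and 229 CPM. Dll1 and Dll3 were thus lowest, and Dner highest, in cultures 35 and 36. Dll4 was at 0.108 to 0.706 CPM. Bmpr1a and Bmpr1b, the type I BMP receptors, were at 119.7, 128, 131, 191 and 194 and 79.1 to 97.3 CPM. Ptch1, the Hedgehog receptor, was at 140.2, 159.8, 170.5, 184 and 177 CPM and Smo, the transducer it inhibits, at 119.99, 123, 115, 134 and 148 CPM, in cells where Gli1 was below 1 CPM. Fzd3, a receptor of axon guidance and planar polarity, was at 151, 158, 157, 300.03 and 299 CPM, about 1.99-fold higher in culture 35 than in culture 19. Fzd9, a Frizzled gene of neural progenitors, was the highest Frizzled gene per length at 95.1 TPM and was lowest in culture 35, at 80.8, 67.1, 59.8, 33.5 and 56.5 CPM.

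Of 42 cytokine, G protein-coupled and other receptors, 37 were at 1 CPM or more in all cultures. Ednrb, the endothelin receptor of astrocytes and progenitors, led this list per length at 1100.4 TPM and was at 1028, 1272, 1433, 1438 and 1241 CPM. Sdc3, a heparan sulphate proteoglycan, followed at 932 TPM, and Adgrg1, an adhesion receptor of neural progenitors, at 674 TPM. Adgrg1 was at 916, 1003, 1033, 1032 and 1002 CPM, a CV of 4.79%. Cntfr, the receptor for ciliary neurotrophic factor, was at 123, 87.1, 144, 55.7 and 52.2 CPM, low in cultures 35 and 36. Tfrc, the transferrin receptor, by which cells take up iron, was at 92.1, 109, 64, 209 and 207 CPM, high in the same cultures. The dopamine receptors Drd1 and Drd2 were at 0.336 to 0.805 and 0.0335 to 0.251 CPM.

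The highest neurotransmitter receptors per length were those of glutamate. Of 37 such genes, 23 passed 1 CPM in all cultures. The metabotropic receptors Grm5 (107 TPM) and Grm3 (103 TPM) and the kainate receptor subunit Grik5 (104 TPM) led the list. Grm5 was at 214, 229, 225, 455 and 369 CPM. The AMPA receptor subunit Gria2 was at 117, 154, 142, 231 and 272 CPM and Gria1 at 38.7, 43, 47.1, 165 and 67.6 CPM. Gria4 was at 1.28, 0.604, 1.55, 4.12 and 109 CPM, high in culture 36 alone. Gabrg1, a subunit of the GABA A receptor, was at 38.1 to 83 CPM. Grm5, Gria1 and Gria2 were thus all higher in cultures 35 and 36 than in the other 3, and 15 of the 27 expressed genes of this list were highest in culture 35, as were 17.2% of the 13088 genes averaging 1 CPM or more.

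The growth factors made by the cells did not include those in the medium at high levels. Egf was at 1.76 to 2.41 CPM and Fgf2, which encodes bFGF, at 4.59 to 11.5 CPM. Of 45 secreted factors, 25 were at 1 CPM or more in all cultures, a share near that of all protein-coding genes. Ptn, which encodes the neurite growth factor pleiotrophin, was the highest at 2038 TPM and 2088, 1949.9, 1648, 1728 and 2123 CPM. Among other ligands of Egfr, Hbegf was at 66.6, 39.7, 57.2, 77.5 and 50.1 CPM and Tgfa at 28.7, 51.6, 45, 25.5 and 36.6 CPM, while Areg, Btc and Ereg stayed near or below 1 CPM. Wnt7b was at 365, 297, 401, 319.8 and 277 CPM. For none of these 3 did cultures 35 and 36 lie on one side of the other cultures. Vegfa, the angiogenic factor, varied widely, at 735, 1278, 429.9, 158 and 112 CPM, about 11.5-fold higher in culture 24 than in culture 36. Sparcl1, a matrix protein of astrocytes, was at 102, 66, 142, 284 and 14.4 CPM, 19.7-fold lower in culture 36 than in culture 35. Bmp7 and Fgf1 were at 40.8 to 51.8 and 45.5 to 84.2 CPM, while Bmp2, Bmp4 and Igf2 were at 0.402 to 0.611, 0.0671 to 0.928 and 0 to 0.0359 CPM.

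Genes of cell division were expressed in all 5 cultures and mostly shared their highest and lowest culture. All 26 listed genes were at 1 CPM or more, and 23 were highest in culture 36 and 24 lowest in culture 26. The exceptions at the top were Cdk4 (highest in culture 19), and Cdk6 and Ccnd2 (highest in culture 35). Mki67, which encodes the proliferation antigen Ki-67, was at 266, 318, 140.4, 263 and 464 CPM. Top2a, the topoisomerase of dividing cells, was at 291, 301, 153, 315 and 609.9 CPM, 3.97-fold higher in culture 36 than in culture 26. The replication helicase subunit Mcm5 was at 112, 67.4, 43.4, 118 and 192 CPM and Rrm2, which supplies deoxynucleotides, at 115, 77.7, 47.1, 121 and 249 CPM. All 4 were lowest in culture 26 and highest in culture 36. Cyclin D1 (Ccnd1), which links growth factor signals to the cell cycle, was at 1079.5, 479.5, 459, 1384 and 1527 CPM, and Ccnd2 at 848, 518, 506, 1763 and 1209 CPM. Both D cyclins were low in cultures 24 and 26, whereas Ccnd3 was at 100, 90.6, 89.5, 96.4 and 106 CPM, a CV of 6.91%.

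Over all 13088 genes averaging 1 CPM or more, 27.4% were highest in culture 36 and 19.6% lowest in culture 26. The summed level of the proliferation genes was 2699 CPM in culture 26, 3546 in culture 24, 4831 in culture 19, 5832 in culture 35 and 7029.7 in culture 36. The astrocyte list, with its highest sum in culture 26 (17838 CPM) and its lowest in culture 36 (7394 CPM), was placed the other way at both ends, and so were the early oligodendrocyte and myelin lists. Apoe made up most of the astrocyte sum in culture 26. Without it, an alternative chosen after the data were seen, the sums ran from 4409.9 CPM in culture 36 to 6079 CPM in culture 26, 1.38-fold in place of 2.41-fold. With 5 cultures no correlation between these sums was computed. The summed level of 12 dissociation and stress genes ran from 1826 to 1923 CPM.

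**Figure D4:**
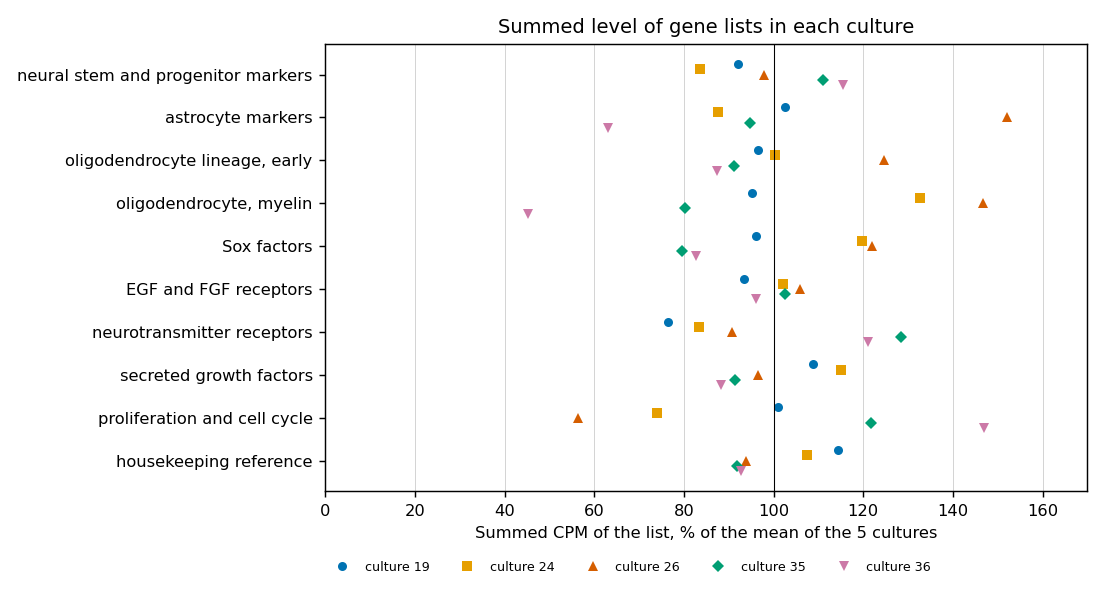
Summed CPM of 10 gene lists in each culture, as a percentage of the mean of the 5 cultures (vertical line at 100%), with 1 symbol per culture. The proliferation list spans 56.4% in culture 26 to 147% in culture 36, the astrocyte list 63% in culture 36 to 152% in culture 26, and the EGF and FGF receptors stay between 93.4% and 106%.

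Inhibitors of the cell cycle were present beside these genes, all 10 at 1 CPM or more in every culture. Cdkn2a, whose locus encodes the tumour suppressors p16 and p19Arf, was at 115, 59, 76.6, 92.6 and 62.2 CPM, and its neighbour Cdkn2b at 65.7, 56.6, 49.6, 42.8 and 25.4 CPM. Cdkn1a, the p53 target that encodes p21, was at 248, 180.3, 166, 226 and 259 CPM and Trp53 at 87.6 to 108 CPM. Cdkn1a and Cdkn2c were lowest in culture 26 and highest in culture 36, as most proliferation genes were, and the other 8 were not.

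Over the 9819 genes averaging 10 CPM or more, the median CV was 15%. Counting error, which leaves out the differences between mice, had a median of 2.64%. A CV of 50% or more was found for 284 genes (2.89%), and the highest culture was at least 2-fold above the lowest for 1421 (14.5%). The biological coefficient of variation estimated by edgeR over 13599 genes was 25.8%.

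The cultures fell closer together within 19, 24 and 26 and within 35 and 36 than between these sets. Between cultures 19 and 24, 142 of the 9819 genes differed at least 2-fold, and between 35 and 36, 162. Across the sets the number ran from 286 (19 against 35) to 798 (26 against 36). Pearson's r of log2(CPM + 0.5) over 13088 genes, which are not independent replicates, was 0.946 to 0.982 over the 10 pairs.

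**Figure D5:**
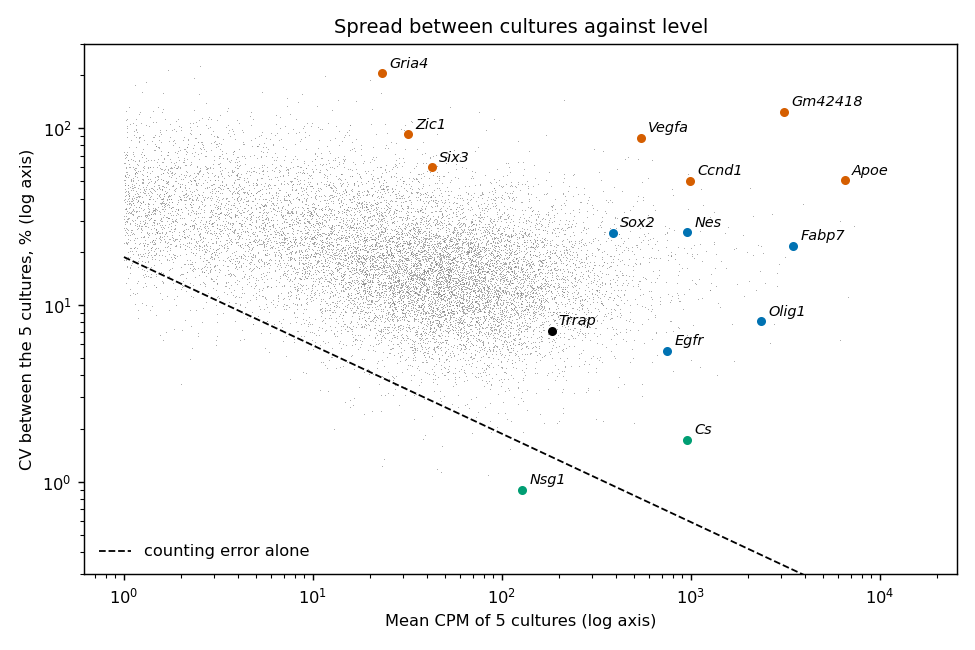
CV between the 5 cultures (%) against mean CPM, both on log axes, for the 13088 genes averaging 1 CPM or more (grey points, 1 per gene), with the counting error as a dashed line. Named genes are the stem cell markers (blue), Trrap (black), examples of the least variable genes (green) and examples of variable genes (orange). Egfr and Olig1, at 5.5% and 8.1%, lie well below Sox2, Nes and Fabp7 at 21.7 to 25.8%.

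Among the 10 least variable genes averaging 100 CPM or more were Nsg1, Alg2, Cs, Stard7, Clstn1, Ipo13, Hp1bp3 and Ubr4. Nsg1, which encodes an endosomal protein of neural cells, was at 129, 129, 128, 126 and 129 CPM, a CV of 0.901% that was below the counting error of 1.65%. Cs, the citrate synthase of mitochondria, was at 966, 944, 969, 972 and 936 CPM. None of the 14 housekeeping genes listed was among these 10, but their median level was 92.9 CPM, so that many of them were below the 100 CPM required. The 10 were taken from the 2386 genes averaging 100 to 1000 CPM and the 73 above that. The lack of a housekeeping gene among so few therefore says little about how stable the list was. Tbp, the TATA-binding protein, has a mean under 100 CPM and was at 34.6, 34.9, 34.6, 33 and 34.9 CPM, a CV of 2.22%. Actb was at 2306, 2644, 2233, 1658 and 1788 CPM and had a CV of 18.9%, above the median over all genes of similar level, 18.1% for the 73 with a mean of at least 1000 CPM.

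The 20 most variable genes averaging 10 CPM or more were of several kinds. The sex-linked genes Xist, Eif2s3y, Kdm5d, Ddx3y and Uty made up 5, and Six3, Six3os1 and Zic1 a further 3. Ucp2, a mitochondrial uncoupling protein, was at 72.3, 54, 56.2, 3.45 and 6.0 CPM, low in cultures 35 and 36. Gdpd3, a lysophospholipase gene, was at 4.8, 84.8, 24.7, 0.334 and 0.287 CPM. A further 3 genes were highest in culture 36 by far. These were Gria4, Rab3b, a GTPase of vesicle release, at 1.48, 2.31, 0.841, 1.26 and 52.1 CPM, and the noncoding Gm42047 at 9.94, 0.134, 0, 4.31 and 86 CPM.

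Noncoding RNA and copies of housekeeping genes were also among the 20. Rn7sk, the small nuclear RNA that restrains transcription elongation, was at 58.6, 3.08, 1.75, 36.1 and 2.55 CPM and Gm42418 as given above. Rn7sk, Gm42418 and the mitochondrial ribosomal RNA mt-Rnr1 were each higher in cultures 19 and 35 than in the other cultures. The libraries were prepared for mRNA, and how much of such noncoding RNA was carried over into each library was not tested. The pseudogene Rps13-ps1 was at 30.2, 15.9, 13.9, 0 and 0 CPM and the retrogene Eno1b at 32.6, 27.1, 17.2, 0.186 and 0.323 CPM, both far higher in cultures 19, 24 and 26 than in cultures 35 and 36. Gm3375, another pseudogene, was at 0.173, 12.1, 0.0673, 26.9 and 27 CPM and Rps3a1, a ribosomal protein gene, at 0.449, 28.8, 0.37, 21.9 and 0.862 CPM. Uniquely mapped reads of near-identical copies are uncertain, since a base that differs between strains can move reads from a copy to its parent. The mice were of a mixed strain background, and its part in these values was not tested.

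In all, 15 genes reached 10 CPM in 1 culture and had at most 3 counts in another. They were 5 genes of the Y chromosome (the 4 below and Uba1y, which reached 12.5 CPM in culture 19 alone), 5 processed pseudogenes, Gm42047 and 4 autosomal coding genes. The last were Zic1, Neurod1, Nhlh1 and Myo7a, of which Nhlh1 and Myo7a are named because they fell into this count. Nhlh1, a bHLH factor of young neurons, was at 0.656, 0.0671, 10.4, 0.483 and 0.18 CPM, high in culture 26 like Neurod1 and Neurog2. Myo7a, an unconventional myosin, was at 0.0345, 0.704, 0.269, 15.8 and 19.6 CPM, above 10 CPM in cultures 35 and 36 only.

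Labelled sex was the one label that differed among the cultures. Between the 2 cultures labelled female and the 3 labelled male, edgeR's quasi-likelihood test called 4 of 15251 genes (0.0262%) at adjusted p below 0.05. All 4 were Y-linked. Without adjustment, 2126 of these 15251 genes had a p below 0.05 in the same test. Eif2s3y, a translation initiation factor gene, was at 70.4, 0.101, 0.135, 77.5 and 77.3 CPM, a log2 difference (female minus male) of -9.26 ± 0.23 (SE, edgeR adjusted p = 6.31e-05). Kdm5d, a histone demethylase, was at 46.7, 0.101, 0.0673, 44.3 and 61.4 CPM. Ddx3y, an RNA helicase, was at 35.2, 0, 0.0673, 41.6 and 46.5 CPM and Uty, a relative of the histone demethylases, at 16.9, 0, 0.0336, 24.9 and 26.6 CPM. The 3 had edgeR adjusted p-values of 4.42e-04, 0.00192 and 0.00418. The female and male cultures did not overlap for any of the 4, as their labels say.

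Xist, the noncoding RNA that silences the inactive X chromosome, was at 0.276, 665, 388, 0.149 and 5.75 CPM. It was far higher in both female cultures but missed the threshold (edgeR adjusted p = 0.296). The 3 male cultures were spread over 4, 8 and 160 counts, and culture 36, with the last of these, had its Y-linked genes at the level of the other male cultures. Whether these 160 counts came from the cells of culture 36 was not tested. Without culture 36 the edgeR adjusted p of Xist was 0.00319, and without culture 19 it was 0.0491. In DESeq2 on all 5 cultures it was 6.91e-04. Without culture 19, the male culture with the fewest 2-fold differences from both female ones, 530 of 15032 genes passed in place of 4 of 15251. Without culture 36, 6 of 15030 passed, 2 of them not on the Y chromosome, Xist among them. DESeq2's Wald test on all 5 cultures, given all 53801 genes without edgeR's filter, called 349, of which 344 were not on the Y chromosome. The fits held unlike sets of genes. The count beyond the Y-linked genes thus depends on the tool and on the cultures kept, most of all culture 19. A single gene could not reach p = 0.05 in an exact permutation test of 2 against 3 cultures, where the smallest two-sided p is 0.2.

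Trrap itself (GRCm38, chr5:144767732-144859778, plus strand) was at 184, 205, 177, 173 and 176 CPM, a mean of 183 ± 13.1 CPM (SD, n = 5) and 32.2 TPM. Its CV of 7.17% was below the median of all genes of at least 10 CPM. Reads over the floxed part were not separated from the rest of the gene, so these values sum both alleles, and recombination without 4-OHT was not examined.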

How the data were processed

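Adult neural stem cells from the SVZ of 5 mice were profiled by stranded mRNA sequencing. The authors aligned single-end reads to GRCm38 and assigned uniquely mapped reads to genes with strand, and deposited the raw counts of all libraries in 1 table. The submitters' processing notes name bcl2fastq 1.8.4, STAR 2.5.4b and featureCounts 1.5.0. No normalization had been applied to the deposited counts. All aNSC libraries shared the same sequencing lanes, so no lane batch separates the cultures. The 10 libraries of other groups were not analysed here.

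Counts were scaled by TMM with edgeR 4.0.16 in R 4.3.3 and expressed as CPM. TPM used the union of exons in GENCODE M21 (GRCm38). Of 53801 gene IDs, 53706 had a symbol in that annotation, and the other 95 held at most 0.00746% of a library's counts. Total counts were 27693657 to 29683741 per culture, so that 3 counts, used as the detection limit, equal about 0.105 CPM. The CV is the SD over the mean CPM of the 5 cultures, and the counting error is the CV that Poisson counts of the same mean would have. Replicates are cultures of separate mice, so the spread includes differences between animals and between cultures.

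Cultures labelled female and male were compared with edgeR's quasi-likelihood test, with Benjamini-Hochberg adjustment and edgeR's default filter on low counts at a minimum of 10. Tested on simulated counts for the 15251 genes of that comparison, it recovered 22% of 100 genes changed by a log2 of 1 and 66% of 100 genes changed by a log2 of 2, with 6 false calls. The simulated cultures were drawn independently around 1 mean per gene, without the sets into which the real cultures fell. These rates may therefore not hold for the real data. Alternatives were library totals, DESeq2 1.42.0 (size factors and Wald test), other thresholds on low values, other exon lengths and leaving out each culture. Named genes were those of 30 lists, the 20 nuclear coding genes with the highest TPM and the mitochondrial and noncoding genes among the top 50, the 20 most variable genes (SD of log2(CPM + 0.5), mean of 10 CPM or more), the 10 least variable (100 CPM or more), the genes that differ by sex, and Trrap. The cultures, members and lists were chosen with earlier results of these data known. A few listed genes are not reported here by name. Promoter windows were taken from RefSeq (GRCm38.p6), at the first start listed for a gene.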

Additional observations from a re-analysis of the deposited data

Results flagged for a closer look

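Of 450 listed or named genes averaging 1 CPM or more, 24 (5.33%) had 1 culture that stood apart from the other 4 by Dixon's test at the 95% level. Chance alone flags about 1 in 20 such groups, so this count is near what chance gives, and the values are a description. Culture 36 held 7 of them, cultures 26 and 35 held 6 each, culture 24 held 3 and culture 19 held 2.

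In culture 36 the AMPA receptor subunit Gria4 was at 109 CPM, beside 0.604 to 4.12 in the others. Rab3b was at 52.1 (0.841 to 2.31) and the noncoding Gm42047 at 86 CPM (0 to 9.94). These 3 gaps were wide, whereas the other 4 in this culture were moderate. The sphingosine phosphate receptor S1pr2 was at 21.3 CPM (11.9 to 12.8), the Hedgehog effector Gli3 at 18.6 (5.72 to 8.42), the growth factor Pdgfc at 14.5 (7.68 to 9.25) and the chemokine receptor Cxcr4, as the lowest value, at 7.76 (13.6 to 15.7).

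In culture 35 Gria1 was at 165 CPM (38.7 to 67.6), the POU factor Pou3f1 at 42.2 (19.8 to 24.9), Notch2 at 115 (82.4 to 89.6), Cdk6 at 14.5 (4.24 to 6.93) and the Hedgehog ligand Shh at 3.01 (0.323 to 0.939). Tbp had its lowest value there, 33 CPM (34.6 to 34.9), a gap of little size in a gene of low spread.

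In culture 26 the neuronal gene Rbfox3 was at 14.3 CPM (2.41 to 4.6), the myelin gene Cldn11 at 9.32 (3.63 to 4.66), the early oligodendrocyte gene Lhfpl3 at 225 (163 to 181), Grik3 at 86.9 (53.7 to 59.1), Fgfr2 at 63.7 (51.2 to 54.8) and the chromatin protein Hp1bp3 at 354 (335 to 339). In culture 24 Aldh1l1 was at 1876 CPM (1236 to 1416), the Egfr inhibitor Errfi1 at 21.2 (14.7 to 16.1) and Gdpd3 at 84.8 (0.287 to 24.7). In culture 19 the cytochrome oxidase subunit Cox6b1 was highest, at 509 CPM (367 to 408), and Adgrg1 lowest, at 916 (1002 to 1033).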

How the results depend on the processing

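The 12278 genes at 1 CPM or more in all cultures became 9091 at 10 CPM and 13649 at 10 counts or more, and ran from 12300 to 12381 when 1 culture was left out. The share of counts held by the 100 most abundant genes, 17.7%, was 15.9% when TPM ranked the genes and 17.3 to 18.0% without 1 culture. Of the 50 highest genes by TPM, 31 were also among the 50 highest by CPM, 45 with the longest transcript as length, and 48 without any 1 culture. The median CV of 15.0% was 17.6% over genes with a mean of 1 CPM or more and 13.8 to 15.0% without 1 culture, and the 284 genes with a CV of 50% or more became 921 at that lower level and 197 to 401 without 1 culture. The count of genes that differed by labelled sex, 4 in edgeR, was 349 with DESeq2's Wald test (5 on the Y chromosome). It was 0 with edgeR when at least 10 counts were required in every culture, a filter that removes Y-linked genes absent from female cultures. Under that filter 1920 of 13649 genes had an unadjusted p under 0.05 in edgeR, beside 2126 of 15251 in the main fit. Both shares were above the 0.05 that chance alone would give, and the cause was not tested. Without 1 male culture the count of genes called by labelled sex ran from 4 to 530. The 530, of which 525 were not on the Y chromosome, came from leaving out culture 19, which leaves 2 against 2, and the cause was not tested. Mean levels of 80 named genes moved by at most 1.38% under library totals or DESeq2 size factors. Without 1 culture the largest shift was 25% (culture 26 left out) to 91.9% (culture 36 left out), and Gria4 went from 23.3 to 1.89 CPM without culture 36, Gm42418 from 3108 to 1596 CPM without culture 35 and Gdpd3 from 23.0 to 7.5 CPM without culture 24. No paired analysis was possible because each mouse gave 1 untreated culture and the cultures form a single group. At 3 counts, about 0.105 CPM, a gene listed at 0 is below detection at this depth, not shown to be absent.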

Other observations

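Single housekeeping and stress genes that were not described above had the following levels. Rplp0 and B2m were at 492, 408, 338, 348 and 384 and 149, 142, 135, 119.9 and 102 CPM in cultures 19, 24, 26, 35 and 36. Hprt was at 14.9, 12.6, 11.6, 12.1 and 16.6 CPM and Ywhaz at 249, 289, 258, 246 and 209 CPM. The immediate early gene Fos was at 75.7, 92.5, 106, 59.7 and 51.9 CPM and Jun at 371, 387, 385, 184 and 189.8 CPM. Hspa5, a chaperone of the endoplasmic reticulum, was at 647, 553, 554, 648 and 706 CPM. The inducible heat shock genes Hspa1a and Hspa1b were at 0.503 to 1.04 and 0.656 to 1.37 CPM, and Hmox1, which is induced by oxidative stress, at 81.2, 58.6, 80.9, 158 and 121 CPM.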
